A study of Mus musculus with 18 samples.

Results

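The vehicle organoids described here are 2 groups of 3 libraries, DMSO D6 and DMSO D12, out of 18 libraries in the series. They were chosen by the label of their treatment and arm, and not by any measured value. Organoids were grown from mammary gland cells of nulliparous wild-type C57BL/6 mice of about 15 weeks, in droplets of Matrigel with EpiCult-B medium, with 5% serum for the first 24 hours only and 10 µL of Matrigel added after day 12. All were collected after 18 days of culture, and the solvent DMSO was added at 1 to 1000 in both groups. The groups differ in the arm of the experiment. The sample names and protocol put DMSO in the medium for the last 6 days in D6 and the last 12 days in D12, whereas the text describing the series gives 12 days to D6 and 6 days to D12. The arms also carry different batch labels, so how long the solvent was present, when it was started and the batch cannot be told apart. A further 6 libraries, Torin D6 and Torin D12 (3 each), received 100 nM of the mTOR kinase inhibitor Torin 1 in the same arms, and enter only where the arm difference is set beside the vehicle one. The labels call the cells epithelial. They do not say whether the replicates of a group came from separate mice or from separate wells, so every p-value below measures the spread between these libraries, which may be technical.

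The mammary duct has an inner luminal layer, which holds milk-forming progenitors and hormone-sensing cells, and an outer basal layer of contractile myoepithelial cells. Keratins, the proteins of the epithelial intermediate filaments, mark these layers: keratins 8 and 18 are luminal, and keratins 5 and 14 basal. Keratins 6, 16 and 17 are known as keratins of stressed, wounded or fast-renewing stratified epithelia, and cornified-envelope proteins belong to the final stage of squamous differentiation in skin.

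Each library held between 23239364 and 28910688 counts, and 33713 of 56893 annotated features had a count in at least 1 of the 6. Levels are given as CPM, a gene's counts scaled to a common library total, and comparisons between genes use CPM per kilobase of transcript. Libraries of 1 group correlated at 0.994 to 0.995 (Pearson's r across genes on the log2 scale, genes not being independent), and libraries of different groups at 0.992 to 0.995. On the first principal component, 31.3% of the variance, replicate 2 of D6 lay at 1.41, beside replicate 2 of D12 at 1.64, while the other D6 libraries lay at -12.4 and -7.99 and the other D12 libraries at 9.51 and 7.85. The fold changes and the number of genes past the threshold are given below also without that D6 library where they moved most.

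At 18 days of culture, transcripts of secreted iron-binding, antimicrobial and matrix-associated proteins stood among the most abundant. Trf, which encodes the iron carrier transferrin, took 47597, 52408 and 48470 CPM in the D6 libraries and 50964, 47255 and 53299 CPM in the D12 libraries. This 1 gene held between 4.72% and 5.26% of all counts in every library, and the groups overlapped. Per kilobase it led at 19447 CPM, ahead of the whey acidic protein family member Wfdc18 at 7200. The 10 genes with the most counts together held 8.60% to 9.21% of a library, and the leading 100 held 22.4% to 23.5%. Transcripts encoded by the mitochondrial genome took only 1.46% to 1.62%, and ribosomal protein genes 2.05% to 2.38%.

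Below Trf and Wfdc18, the next nuclear genes per kilobase were Gm43305, a noncoding transcript, at 4292, then Ly6d, a lipid-anchored surface protein of epithelial cells, at 3888, and Slpi, a secreted inhibitor of neutrophil proteases, at 3627. The mitochondrially encoded mt-Atp6 (3292), mt-Cytb (3179) and mt-Atp8 (3107) came next. Iron storage was represented by the ferritin chains Fth1 at 3011 and Ftl1 at 2498 CPM per kilobase. The glycolytic enzymes Eno1 (2337) and Pkm (2112), the mineral-binding cytokine osteopontin Spp1 (2180) and the chitinase-like secreted protein Chi3l1 (2173) followed close together. The per-kilobase values of Pkm, Spp1 and Chi3l1 differed by less than the spread of each gene between libraries. Spp1 counts ranged from 2572 to 3941 CPM and Chi3l1 counts from 3624 to 4564 CPM. Also among the 30 genes with the most counts were Cd14, a receptor for bacterial lipopolysaccharide, at 2600 ± 179 CPM (SD, n = 6), the secretory-pathway regulator Xbp1 at 2582 ± 135 CPM, and Mfge8, a protein of the milk fat globule, at 2110 ± 140 CPM. The gene in second place by counts, D17H6S56E-5, at 5785 to 6332 CPM, had no transcript length in the annotation used. In all, 13270 genes reached 1 CPM in every vehicle library, 9214 reached 10 CPM, 1968 reached 100 CPM and 77 reached 1000 CPM.

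**Figure D1:**
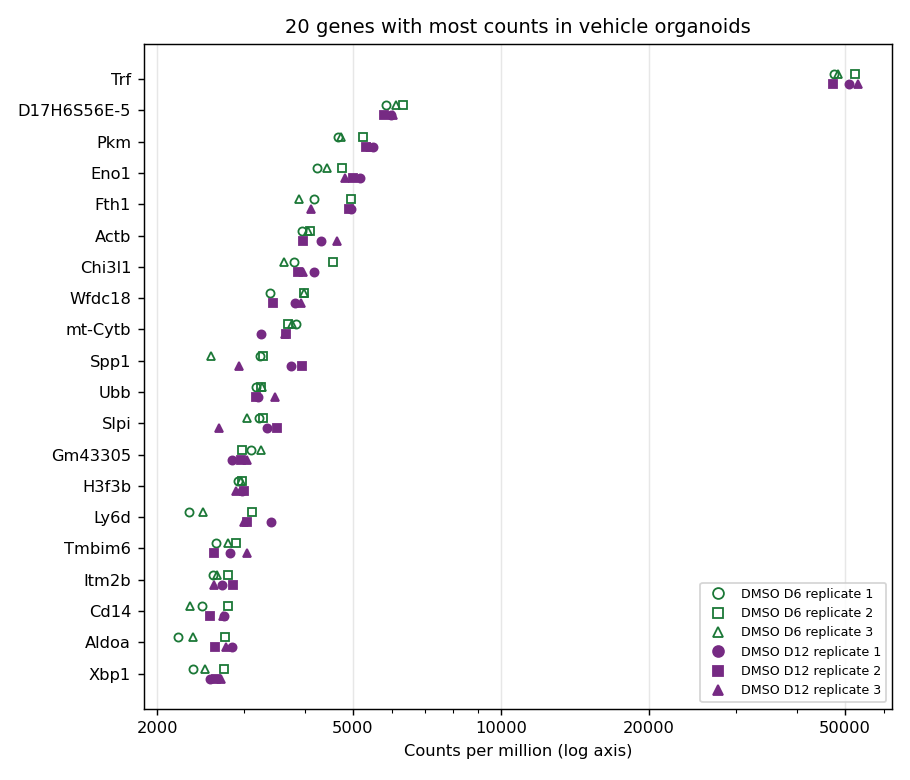
Level in CPM (log axis) of the 20 genes with the most counts in vehicle organoids, 1 point per library, open for D6 and filled for D12. Trf lies at 47255 to 53299 in the 6 libraries, while the second gene lies at 5785 to 6332.

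Secreted proteins were described in 6 groups, drawn up by function, so that not every member is a secreted protein. The acute phase and innate defence group summed to 11615 to 12989 CPM and had 22 of its 28 annotated members above the filter on low counts. Besides Wfdc18 and Slpi it was led by the fibrinogen chains Fgg (1011 ± 96.3 CPM) and Fgb (858 ± 65.4 CPM), the clotting proteins otherwise made by the liver, and by lipocalin 2, Lcn2 (927 ± 111 CPM), which binds bacterial siderophores. Lactoferrin, Ltf, the iron-binding protein of milk, stood at only 28.2 CPM, ranging from 25.4 to 32.7. The protease and inhibitor group summed to 9812 to 10507 CPM. That sum includes proteins that act inside the cell, such as lysosomal cathepsins and a chaperone, and does not measure secretion. Its most abundant members were the cathepsins Ctsb (1954 ± 91.0 CPM) and Ctsd (1508 ± 63.3 CPM), the collagen chaperone Serpinh1 (1752 ± 82.0 CPM) and the metalloproteinase inhibitor Timp3 (1045 ± 67.4 CPM). Stromelysin 1, Mmp3, which cuts basement membrane proteins, followed at 1020 ± 122 CPM.

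Matrix and basement membrane genes summed to 7140 to 8448 CPM, led by tenascin C, Tnc (1006 ± 149 CPM), periostin, Postn (895 ± 88.9 CPM), Fbln2 (624 ± 26.1 CPM) and fibronectin, Fn1 (566 ± 75.0 CPM). Growth factors and their binding proteins summed to 6288 to 7740 CPM. After Spp1, the IGF-binding protein Igfbp5 stood at 1062 ± 103 CPM, the heparin-binding growth factor Ptn at 725 ± 93.2 CPM and the Wnt antagonist family member Dkk3 at 232 ± 16.2 CPM. Chemokines and cytokines summed to 2871 to 2973 CPM. Among them Cx3cl1, a membrane-bound chemokine, reached 854 ± 56.4 CPM, the macrophage growth factor Csf1 341 ± 28.0 CPM, Cxcl14 299 ± 32.6 CPM and the alarmin Il33 277 ± 20.03 CPM. Of the complement group (1573 to 1834 CPM), the regulator clusterin, Clu, alone had 1339 ± 93.7 CPM, while the central component C3 had 91.5 ± 6.03 CPM. In each of these 6 groups the D6 and D12 sums overlapped.

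Luminal keratins were the most abundant keratins. Krt18 stood at 1734 CPM per kilobase, above Krt8 at 684 and the basal Krt14 at 672, and these in turn stood above Krt19 at 445, Krt5 at 338 and Krt17 at 218. Krt8 and Krt14 lay closer together than the spread of each between libraries (1340 ± 174 CPM and 1141 ± 234 CPM). Krt14 differed between D6 and D12, as given below, so its place beside Krt8 holds for the pooled libraries only. The adhesion proteins Epcam (996 ± 112 CPM) and Cdh1 (512 ± 24.9 CPM) were the other leading luminal markers. The 17 luminal progenitor and alveolar markers summed to 10248 to 11758 CPM, led by Wfdc18, Cd14, Mfge8 and Lcn2. Among them the stem cell factor receptor Kit ranged from 325 to 428 CPM and the transcription factor Elf5, which drives alveolar fate, from 29.0 to 38.7 CPM.

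Markers of hormone-sensing luminal cells summed to 2269 to 2563 CPM. They were led by Fgb (858 ± 65.4 CPM), given above also in the acute phase group, and the luminal regulator Gata3 (552 ± 34.0 CPM). Much of the sum came from Fgb and Gata3. The prolactin receptor Prlr stood at 290 ± 35.5 CPM and the estrogen receptor Esr1 at 85.4 ± 7.15 CPM. Foxa1, the factor that opens chromatin for Esr1, was at 30.6 ± 3.97 CPM. The progesterone receptor Pgr, itself an estrogen target, was at 3.81 CPM, and the estrogen target Greb1 at 0.0727 CPM. Calcitonin, Calca, had no count in any library, which at 3 counts allows up to 0.104 CPM in the deepest library and 0.129 CPM in the shallowest. Basal markers were all above the filter, 25 of 25. They included the integrin Itgb1 (936 ± 30.03 CPM), smooth muscle actin Acta2 (441 ± 16.03 CPM), the basal master regulator Trp63 (166 ± 11.6 CPM) and the oxytocin receptor Oxtr (27.1 ± 4.92 CPM).

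Milk genes were unequal. Kappa casein, Csn3, which stabilises casein micelles, stood at 808 ± 92.9 CPM and Csn1s1 at 113 ± 12.2 CPM. Lalba, the lactose synthase subunit, ranged from 8.71 to 17.6 CPM. Beta casein, Csn2, was at 0.140 CPM and whey acidic protein, Wap, at 0.0243 CPM, with no count of Wap in 4 of the 6 libraries; both means lie near or below the level of 3 counts in 1 library. Proliferation genes were present at moderate levels, with Mki67, the antigen of cycling cells, at 35.5 to 43.6 CPM and topoisomerase Top2a at 60.5 ± 5.34 CPM. The glycolysis group summed to 18096 to 22271 CPM, and hypoxia response genes to 3708 to 4743 CPM, with the oxidoreductase Ero1a at 1306 ± 178 CPM.

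Markers of other cell types were checked in the same libraries. Immune markers summed to 7.05 to 12.6 CPM over 21 genes, of which the lysosomal Cd68 alone gave 8.21 CPM. The leukocyte antigen Ptprc was at 0.219 CPM, and Cd3e, Cd4, Adgre1, C1qa, Tyrobp and Nkg7 had no count. Endothelial and pericyte markers summed to 91.7 to 101 CPM, of which 55.1 came from Notch3. The endothelial cadherin Cdh5 was at 0.0372 CPM, and Emcn and Sox17 had no count. Adipocyte markers summed to 34.1 to 44.6 CPM, with 4 of 13 at a mean of 1 CPM or more. Adiponectin, Adipoq, was at 0.00727 CPM and leptin, Lep, had no count. Nerve, glia and muscle markers summed to 124 to 157 CPM, with 11 of 15 at a mean of 1 CPM or more. Of that sum, Sox10, also on the luminal progenitor list, gave 51.1 CPM. Fibroblast markers stood above all of these lists. All 18 passed the filter and summed to 1452 to 1999 CPM, led by the collagen chains Col1a1 (398 ± 63.8 CPM), Col6a1 (257 ± 25.1 CPM) and Col1a2 (250 ± 40.1 CPM). In such bulk libraries a change in the number of cells of a type and a change in RNA per cell cannot be told apart.

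**Figure D2:**
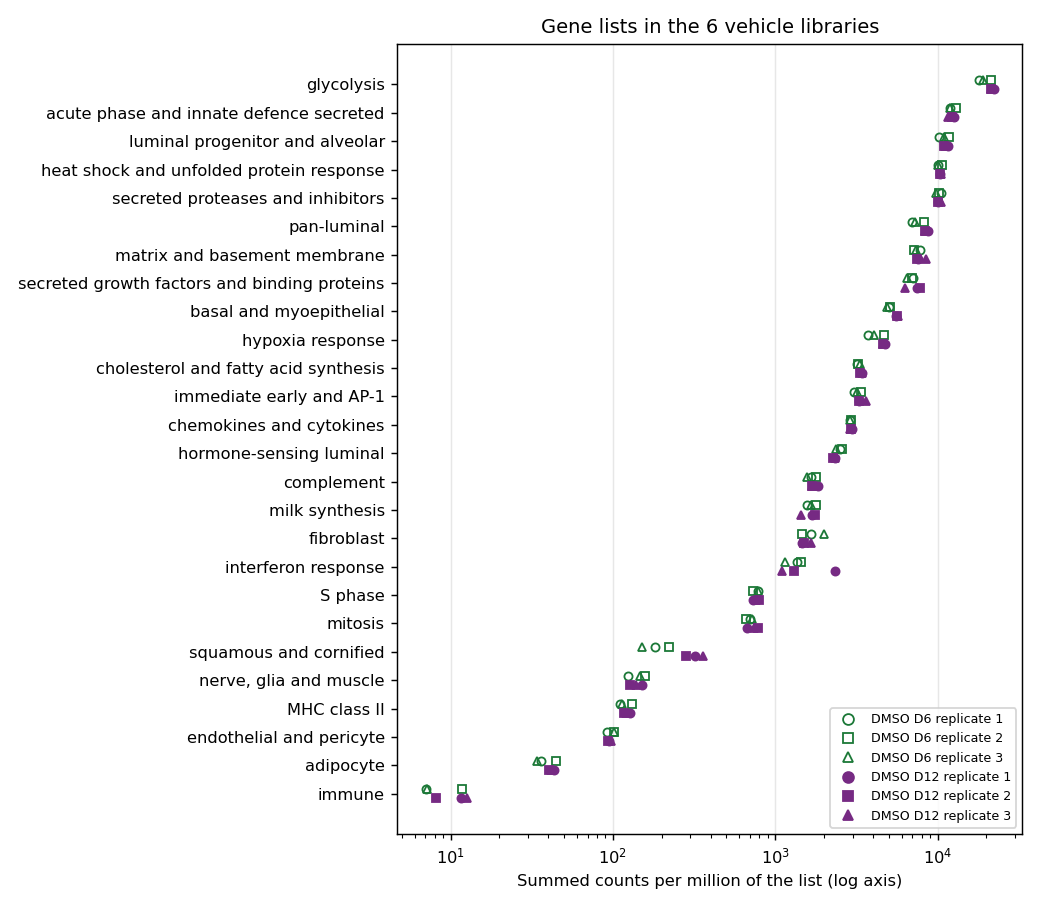
Summed CPM (log axis) of 26 gene groups in the 6 vehicle libraries, open symbols for D6 and filled for D12. The squamous and cornified group lies at 151 to 222 in D6 and 280 to 358 in D12, and replicate 1 of D12 stands apart in the interferon response group at 2323.

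The comparison of D12 with D6 asked what differs between vehicle organoids of the same culture age whose solvent schedule and batch differed. Few genes did. At a Benjamini-Hochberg adjusted p under 0.05 in edgeR's quasi-likelihood test, 16 of 16759 genes passed, 0.0955% of those tested: 8 were higher in D12 (0.0477%) and 8 lower (0.0477%). Of the 8 that rose, 4 were keratins (Krt14, Krt17, Krt6a, Krt16) and 3 encode an epidermal adhesion protein (Cdsn), a gap junction protein (Gjb2) and a protease inhibitor of the stefin family (Cstdc5). The 8 that fell comprised 5 pseudogenes and 3 other genes (Brinp1, Tlcd4 and Gm45140). The coefficient of biological variation was 10.1%.

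The data also bound how large an unseen difference could be. Over the 9633 genes that averaged 10 CPM or more, the median absolute log2 fold change was 0.07, the 95th percentile 0.25, and 8 genes had a fitted value above 1 in absolute size. The 95% confidence interval of a gene had a median half-width of 0.18 on the log2 scale. For 9597 of these genes (99.6%) that interval, taken gene by gene and not corrected for their number, lay within a doubling or halving.

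**Figure D3:**
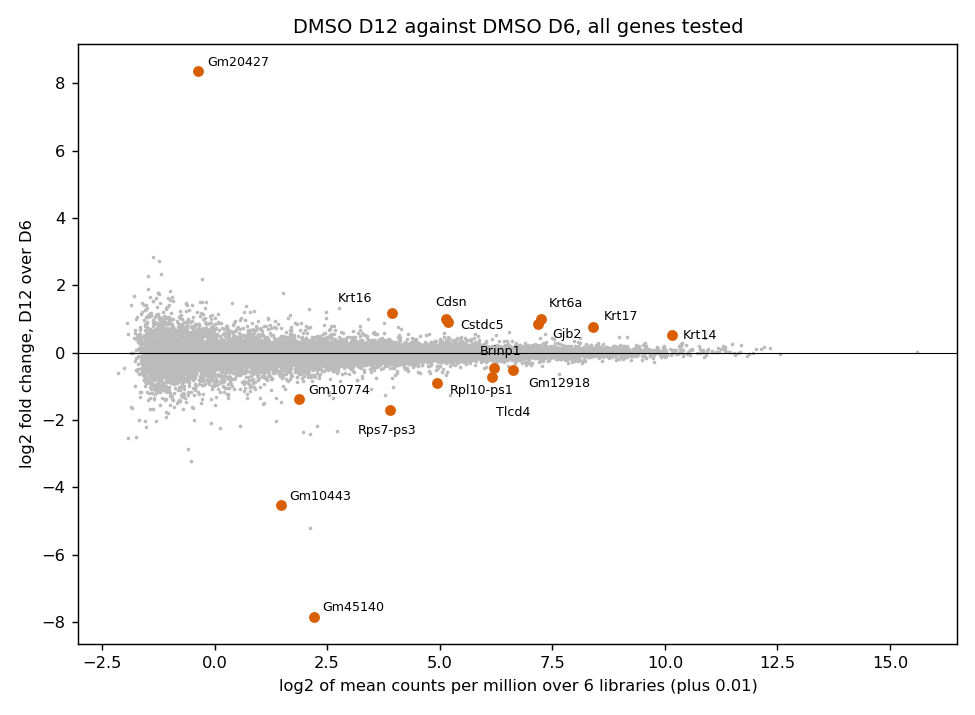
Fitted log2 fold change of D12 over D6 for 16759 genes against their mean level (log2 axis), with the 16 genes past an adjusted p of 0.05 in orange. The keratins Krt14, Krt17, Krt6a and Krt16 lie above the cloud at 0.52 to 1.19.

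Krt14, the basal keratin, was the most abundant of the genes past the threshold. It stood at 956, 1024 and 828 CPM in D6 and at 1326, 1360 and 1352 CPM in D12, a log2 fold change of 0.52 ± 0.07 (SE; edgeR adjusted p = 0.0195). All 3 D12 libraries lay above all 3 D6 libraries, and the D12 libraries lay much closer together. Krt17, expressed in basal and injured epithelium, stood at 240, 289 and 223 CPM in D6 and at 420, 369 and 488 CPM in D12 (log2 0.76 ± 0.11, edgeR adjusted p = 0.0195). Krt6a, a keratin of wounded epidermis, went from 108, 122 and 75.8 CPM to 199, 174 and 237 CPM (log2 1.00 ± 0.15, edgeR adjusted p = 0.0295). Krt16, the usual filament partner of keratin 6, was low, at 9.24, 12.4 and 6.63 CPM in D6 against 20.7, 19.1 and 24.5 CPM in D12 (log2 1.19 ± 0.18, edgeR adjusted p = 0.0388). For Krt17, Krt6a and Krt16 alike, replicate 2 was the highest D6 library and the lowest D12 library.

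Corneodesmosin, Cdsn, which holds cornifying cells together, showed 21.8, 26.8 and 21.8 CPM in D6 and 48.0, 40.7 and 52.4 CPM in D12 (log2 1.00 ± 0.11, edgeR adjusted p = 0.00522). The groups were well separated, the lowest D12 library being above the highest D6 library by more than the range within D6. Gjb2, which encodes connexin 26, stood at 81.1, 134 and 94.6 CPM in D6 against 189, 172 and 202 CPM in D12 (log2 0.86 ± 0.14, edgeR adjusted p = 0.0474). Cstdc5 stood at 19.8, 32.8 and 22.7 CPM against 49.0, 46.7 and 46.0 CPM (log2 0.92 ± 0.14, edgeR adjusted p = 0.0390). The stefin A family is a cluster of near-identical copies, so reads could be split among them and the Cstdc5 value is uncertain to that extent. The remaining gene higher in D12, Gm20427, a predicted noncoding transcript named here after its values were seen, had no count in D6 and 25, 49 and 55 counts in D12. Against a floor of 3 counts over the D6 group it was 38.4-fold higher, and the lower 95% limit from counting error alone was 30.8-fold. In the Torin libraries Gm20427 was uneven, at 1.19 ± 2.06 CPM in D6 and 0.60 ± 0.68 CPM in D12 (n = 3 each).

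For the genes that rose, the promoter windows from RefSeq (GRCm38.p6, 250 bases before to 50 after the annotated start) are shown for those with a single entry. They let an annotated start of a keratin, a stefin and a connexin gene be compared. Whether these are the main starts of the genes, or the ones used in the organoids, was not tested. Capitals mark the GC box GGGCGG on either strand.
Krt14, chr11:100205981-100206280, minus strand: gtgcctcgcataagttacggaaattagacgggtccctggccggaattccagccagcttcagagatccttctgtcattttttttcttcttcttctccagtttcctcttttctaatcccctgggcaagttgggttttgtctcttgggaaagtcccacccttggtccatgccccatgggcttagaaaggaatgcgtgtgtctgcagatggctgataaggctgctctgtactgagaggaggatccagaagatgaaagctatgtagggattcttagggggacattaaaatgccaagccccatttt
Cstdc5, chr16:36367521-36367820, minus strand: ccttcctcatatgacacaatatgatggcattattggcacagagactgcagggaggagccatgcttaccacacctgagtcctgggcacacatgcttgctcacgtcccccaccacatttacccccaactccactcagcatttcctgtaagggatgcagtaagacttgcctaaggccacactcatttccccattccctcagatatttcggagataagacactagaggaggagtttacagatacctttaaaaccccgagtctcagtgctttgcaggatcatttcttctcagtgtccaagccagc
Gjb2, chr14:57104653-57104952, minus strand: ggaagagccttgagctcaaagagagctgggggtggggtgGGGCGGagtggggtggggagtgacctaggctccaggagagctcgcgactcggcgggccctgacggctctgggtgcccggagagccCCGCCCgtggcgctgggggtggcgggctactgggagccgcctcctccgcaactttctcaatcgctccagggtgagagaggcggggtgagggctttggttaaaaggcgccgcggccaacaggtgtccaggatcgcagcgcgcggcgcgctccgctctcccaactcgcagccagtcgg
Cdsn has 2 annotated starts, and Krt6a, Krt16, Krt17 and Gm20427 had no entry. On both strands, neither the AP-1 motif TGANTCA, which 7.81% of 32851 promoter windows hold, nor the TATA motif TATAAA, which 13.6% hold, was in any window of the 4 matched genes. The GC box, searched after the first pair of motifs had given no match, was in 1 of the 4 genes, Gjb2, starting 211 and 126 bases before its start site, and 35.7% of all windows hold it. The motifs do not overlap. A missing match says only that these letters are not in these windows.

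Among the genes lower in D12, Brinp1, known mainly from neurons, stood at 83.9, 84.2 and 89.0 CPM in D6 and 62.9, 64.0 and 60.6 CPM in D12 (log2 -0.46 ± 0.06, edgeR adjusted p = 0.0151). Tlcd4, which encodes a membrane protein with a TLC domain, stood at 88.3, 86.0 and 93.9 CPM against 53.0, 63.5 and 47.3 CPM (log2 -0.71 ± 0.09, edgeR adjusted p = 0.0151). Both genes were steady within D6 and separated from D12 without overlap. Gm45140, a predicted coding gene named after its values were seen, had 281, 118 and 318 counts in D6 and 0, 3 and 0 counts in D12. Its total CPM was 268 times higher in D6, with a 95% interval from 91.2 to 1301 that covers counting error only.

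The 5 pseudogenes are uncertain, since reads from processed copies can be split with the parent gene or with one another. Rpl10-ps1 went from 37.5, 39.9 and 42.3 CPM in D6 to 19.6, 19.6 and 24.5 CPM in D12 (log2 -0.91 ± 0.10, edgeR adjusted p = 0.00522), while its parent Rpl10, a large-subunit ribosomal protein gene, had a log2 fold change of 0.23 (edgeR adjusted p = 0.639). Rps7-ps3 went from 24.99, 27.5 and 16.2 CPM to 9.27, 7.83 and 3.78 CPM (log2 -1.71 ± 0.27, edgeR adjusted p = 0.0388), and its parent Rps7 had 0.19 (edgeR adjusted p = 0.640). Neither parent passed the test, and both values had the opposite sign to the copy. The other pseudogenes are predicted genes named after their values were seen. Gm12918 stood at 117 ± 6.12 CPM in D6 and 81.6 ± 2.73 CPM in D12 (n = 3 each). Gm10774 had 404 counts in the D6 group and 173 in D12, and Gm10443 had 404 and 19.

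**Figure D4:**
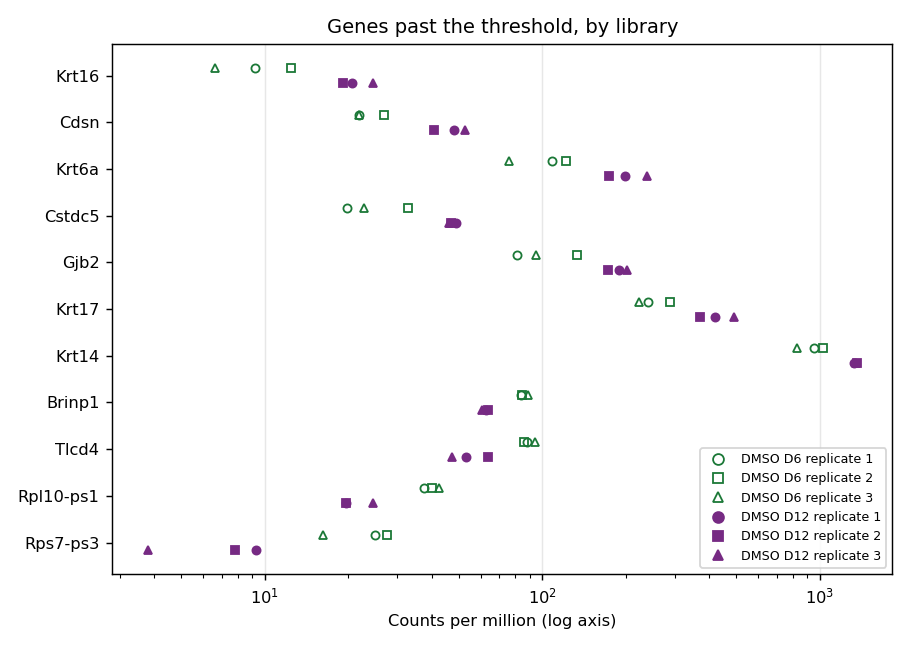
CPM (log axis) in each of the 6 vehicle libraries for the 11 genes past the threshold that carry an established name, ordered by fold change. In none of the 11 do the open D6 and filled D12 symbols overlap, and Krt14 is the most abundant at 828 to 1360.

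Non-overlap of 3 against 3 libraries was itself common, holding for 12.3% of all genes tested, and an unadjusted p under 0.05 was met by 7.4% (3.58% higher in D12, 3.82% lower). The keratin family was described against these shares. Of 54 keratin genes annotated, 21 passed the filter. At the adjusted test 4 were higher in D12 and 0 lower. Another 6 had an unadjusted p under 0.05 in the same direction and did not pass the adjusted test, so that 10 of 21 met that mark and none did with a lower level. The median log2 fold change of the 21 was 0.25, against -0.003 over all genes. Krt6b, a near copy of Krt6a that could share reads with it, stood at 3.35 ± 1.08 CPM in D6 and 7.72 ± 0.71 CPM in D12 (log2 1.21, edgeR adjusted p = 0.0898). Krt5, the partner of Krt14, had a log2 fold change of 0.25 (edgeR adjusted p = 0.296), Krt8 0.29 (adjusted p = 0.338) and Krt18 0.20 (adjusted p = 0.577), while Krt15 had -0.27 (adjusted p = 0.756).

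Krt6a and Krt16, both higher in D12, are the 2 members of the squamous and cornified list past the adjusted test. That list had 13 of 22 members above the filter and a median log2 fold change of 0.54. Of the 13, 11 had a value above 0. At an unadjusted p under 0.05, 6 were higher in D12 and 0 lower, against 3.58% and 3.82% of all genes tested. Its summed level was 183, 222 and 151 CPM in D6 and 319, 280 and 358 CPM in D12, and between 50.3% and 66.3% of it came from Krt6a in each library. The keratinocyte protein Krtdap stood at 21.2 CPM in D6 and 30.2 CPM in D12 (log2 0.52, edgeR adjusted p = 0.390), and the envelope precursor Sprr1a at 25.4 and 29.7 CPM (log2 0.23, edgeR adjusted p = 0.686). Transglutaminase 1, Tgm1, which cross-links the envelope, had -0.15 (adjusted p = 0.913). The transcripts of loricrin, involucrin and filaggrin, which mark finished cornification, were each below 1 CPM. Loricrin, Lor, stood at 0.212 ± 0.09 CPM in D6 and 0.166 ± 0.05 CPM in D12, and involucrin, Ivl, at 0.433 ± 0.24 and 0.402 ± 0.18 CPM (n = 3 each). Filaggrin, Flg, stood at 0.0770, 0.349 and 0.215 CPM in D6 and at 0.752, 0.658 and 0.900 CPM in D12. It had the largest fold of the 13 tested members and did not pass the test (log2 1.85 ± 0.52, edgeR adjusted p = 0.390). Its groups did not overlap, which held for 12.3% of all genes tested. Beside this, fibroblast markers had a median log2 fold change of -0.18, with 3 of 18 above 0, and 0 of 18 past the adjusted test. At an unadjusted p under 0.05, 3 fibroblast markers were lower in D12 and 0 higher, against 3.82% and 3.58% of all genes tested. The 3 were the proteoglycan Lum (log2 -0.65, edgeR adjusted p = 0.257), Col14a1 (-0.58, adjusted p = 0.0763) and Pi16 (-0.74, adjusted p = 0.648). The sums of the 18 markers overlapped, at 1653, 1452 and 1999 CPM in D6 and 1452, 1511 and 1656 CPM in D12. The part of these markers in the result was not tested.

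Of 492 tested genes on the 26 lists, 4 passed (0.813%), the keratins named above, against 0.0955% of all genes tested. The lists were chosen with earlier results of these data known, so the difference between these shares is no evidence of enrichment. Basal and myoepithelial markers had 2 of 25 past the test, both higher in D12 (Krt14 and Krt17), and a median of -0.04. Trp63, Acta2 and Itga6 had log2 values of -0.13, -0.02 and -0.002, none past the test. Pan-luminal markers had 0 of 16 past the test and a median of 0.12, and their sum was 6925, 8204 and 7234 CPM in D6 against 8688, 8372 and 8379 CPM in D12. Hormone-sensing markers had 0 of 14 past the test and a median of -0.22. At an unadjusted p under 0.05, 7 were lower in D12 and 2 higher, against 3.82% and 3.58% of all genes tested. Esr1 stood at 90.1, 90.8 and 92.8 CPM in D6 and 81.6, 74.1 and 82.9 CPM in D12 (log2 -0.20, edgeR adjusted p = 0.468). That separation without overlap, found for 12.3% of all genes tested, did not pass. Cited1, a coactivator of estrogen receptor signalling, had -0.27 (adjusted p = 0.380) and Pgr -0.48 (adjusted p = 0.648). Luminal progenitor markers had a median of 0.05 and milk genes -0.02, with 0 of 16 and 0 of 9 past the test.

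Glycolysis genes had 0 of 19 past the adjusted test, with 12 at an unadjusted p under 0.05 higher in D12 and a median of 0.16. Their sum was 18096, 21240 and 19147 CPM in D6 and 22271, 21464 and 21430 CPM in D12. Lactate dehydrogenase A, Ldha, had a log2 fold change of 0.20 (edgeR adjusted p = 0.534) and Pkm 0.15 (adjusted p = 0.591). Hypoxia response genes showed 0 of 20 past the test, 9 at an unadjusted p under 0.05 and a median of 0.19. Here replicate 2 of D6, at 4682 CPM, lay among the D12 libraries, at 4605 to 4743 CPM, while the other D6 libraries were at 3708 and 4053 CPM. The 6 groups of secreted proteins had no member past the test, with medians from -0.06 for growth factors to 0.07 for chemokines. Members went both ways. At an unadjusted p under 0.05, proteases and inhibitors had 7 higher and 4 lower in D12 of 34, and chemokines 6 and 3 of 30. Growth factors had 4 and 7 of 47, matrix genes 3 and 2 of 30, acute phase genes 3 and 3 of 22, and complement 1 and 1 of 13. Over all genes tested the shares were 3.58% higher and 3.82% lower. Cell cycle genes had no member past the test, with medians of -0.01 for S phase (0 of 23) and 0.08 for mitosis (0 of 25).

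Genes outside the threshold were looked at after their values were seen, and those named are a choice, not the full order. Nearest were the pseudogenes Gm4294 (log2 -5.22, edgeR adjusted p = 0.05055) and Morf4l1-ps1 (log2 -2.41, edgeR adjusted p = 0.0763), both lower in D12. The tight junction protein Cldn1 (log2 0.55, edgeR adjusted p = 0.0785) and the desmosomal cadherin Dsc3 (log2 0.34, edgeR adjusted p = 0.103) were higher in D12. Also lower in D12 were the fibril-associated collagen Col14a1 (log2 -0.58, edgeR adjusted p = 0.0763), the chemokine Ccl8 (log2 -1.25, edgeR adjusted p = 0.0785) and the growth factor Igf1 (log2 -0.37, edgeR adjusted p = 0.160). None of these passed.

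The number of genes past the threshold depended on the libraries and the test. Without replicate 2 of D6 it was 44, and the log2 fold changes were then 1.09 for Gjb2, 1.15 for Cstdc5, 1.43 for Krt16, 1.15 for Krt6a and -1.56 for Rps7-ps3, of which only Rps7-ps3 no longer passed (edgeR adjusted p = 0.0598). The number of genes without replicate 1 of D6, replicate 1 of D12 or replicate 2 of D12 was 8, 5 and 9. DESeq2 gave 83 genes, which included all 16, the fit with no filter gave 330, and a fit sharing its spread with the Torin libraries gave 1. No named gene changed direction in any alternative. Cdsn and Rpl10-ps1 alone among the 11 named genes passed in each of the 6 fits that left out 1 library. Krt14, Krt17, Krt6a and Tlcd4 passed in 3 of the 6, Brinp1 and Rps7-ps3 in 2, and Krt16, Gjb2 and Cstdc5 in 1. With replicate number as a block in the fit, Krt14 was the 1 keratin that passed (edgeR adjusted p = 0.0376). Krt17, Krt6a, Krt16, Gjb2 and Brinp1 then did not pass (edgeR adjusted p from 0.0583 to 0.0723).

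The same arm difference, D12 against D6, was then taken in the Torin libraries, which share no library with the vehicle groups. There 1805 of 16944 genes passed (10.7%), with a larger coefficient of biological variation of 25.5%. That count rested on single libraries too, falling to 722 without replicate 1 of D12, 686 without replicate 2 of D12, and 706 and 1010 without replicates 1 and 2 of D6. Of the 16 genes that differed between the vehicle groups, 3 also passed under Torin, which is 18.8% of the vehicle list and 0.166% of the Torin list. Only Gm10774 among them had the same direction. Gjb2 stood at 115 ± 18.6 CPM in Torin D6 and 22.5 ± 2.41 CPM in Torin D12 (n = 3 each; log2 -2.36 ± 0.15, edgeR adjusted p = 0.000532), the opposite of its rise under DMSO. Cdsn stood at 14.8 ± 2.28 and 6.35 ± 1.08 CPM (log2 -1.22 ± 0.20, edgeR adjusted p = 0.0118), again opposite to the vehicle arms.

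The difference between the arm effects was tested directly in a fit of all 12 libraries, in which 1917 of 18112 genes passed (10.6%). It passed for 7 of the 16 vehicle genes. Those genes were chosen by their difference in the same DMSO libraries, which moves this test away from 0. Their share therefore cannot be read against the 10.6% of all genes. Krt17 had a log2 difference, DMSO minus Torin, of 1.52 ± 0.32 (edgeR adjusted p = 0.0117), Krt6a of 1.35 ± 0.33 (adjusted p = 0.0228) and Krt16 of 1.29 ± 0.33 (adjusted p = 0.0284). For Krt14 it was 0.63 ± 0.23 and did not pass (edgeR adjusted p = 0.121). Krt14 levels under Torin were 769 ± 112 CPM in D6 and 725 ± 201 CPM in D12. Cstdc5 was at 1.33 ± 0.59 CPM and 2.20 ± 0.83 CPM under Torin, with a difference of 0.20 ± 0.45 that did not pass (edgeR adjusted p = 0.825).

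**Figure D5:**
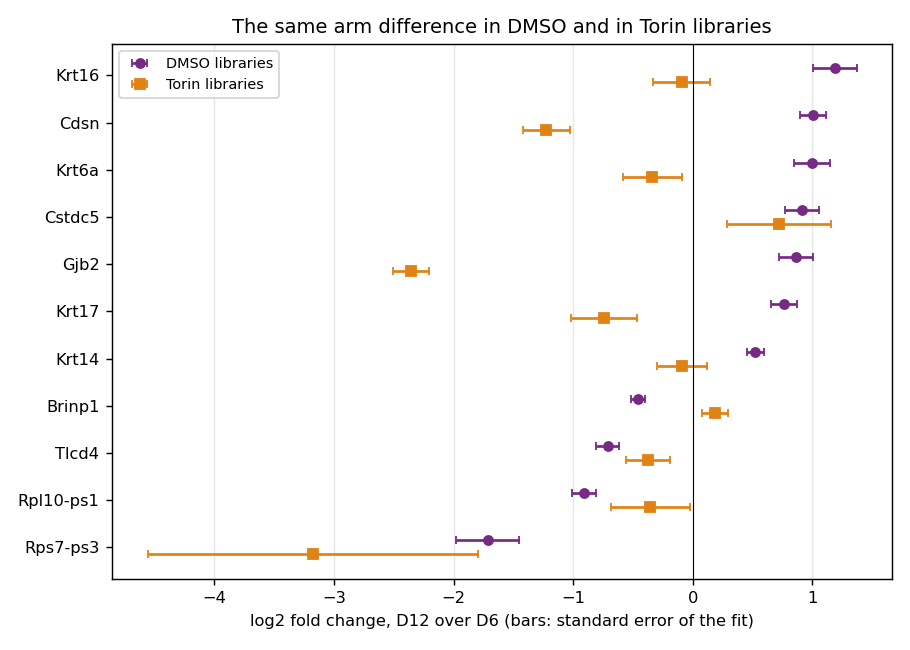
Fitted log2 fold change of D12 over D6 in the 6 DMSO libraries (circles) and the 6 Torin libraries (squares) for the 11 named genes, with bars of 1 standard error. Gjb2 and Cdsn lie at 0.86 and 1.00 under DMSO and at -2.36 and -1.22 under Torin.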

How the data were processed

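Poly(A) RNA from organoids was made into libraries with a directional kit and sequenced in paired ends, per the labels' protocols. The authors deposited raw counts per gene, used for every test, and a normalized signal per gene, used in 1 alternative. Tools listed in the submitters' processing notes, with no order or settings, are kallisto, cutadapt, Trim Galore and DESeq2, and the build is GRCm39; reads shared by near-identical copies may have been divided among them. Here genes passing edgeR's filterByExpr were tested with edgeR 4.0.16 (quasi-likelihood, TMM, R 4.3.3) on the 6 DMSO libraries alone, with Benjamini-Hochberg adjustment at 0.05. The code was tested on simulated data. DESeq2 1.42.0 and limma 3.58.1 (log2 of the deposited normalized signal plus 1, mean of at least 10) were alternatives. CPM used TMM-scaled totals, and CPM per kilobase the longest basic GENCODE transcript of GRCm38, found for 94.5% of tested genes; no coordinates were taken from it. Libraries of a group differed by more than sampling noise (chi-square per degree of freedom 7.62 to 16.2). Genes named were those past the threshold with an established symbol, the 30 with most counts or, per kilobase, the leading 20, the 4 most abundant of each list, the 12 most variable, and a set of lineage genes. Other genes, among them Greb1, Calca, Cited1, Tgm1, Lor, Ivl, Flg, Lum, Pi16, Cldn1, Dsc3, Col14a1, Igf1 and markers of other cell types, were named after their values were seen. The groups and the 26 lists were chosen with earlier results of these data known.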

Additional observations from a re-analysis of the deposited data

Results flagged for a closer look

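For 7 of the 16 genes that differed between the vehicle groups, the D12 against D6 difference itself differed between DMSO and Torin libraries, by the interaction term of an edgeR fit of 12 libraries adjusted over 18112 genes. The 16 genes were chosen by their difference in the same DMSO libraries, so this count is no independent evidence that a difference is particular to vehicle. The log2 difference, DMSO minus Torin, was 3.24 for Gjb2, 2.25 for Cdsn, 1.52 for Krt17, 1.35 for Krt6a and 1.29 for Krt16. It was -0.62 for Brinp1, which stood at 72.4 ± 5.20 CPM in Torin D6 and 82.4 ± 8.68 CPM in Torin D12 (n = 3 each). For Gm45140, a predicted gene, it was -8.003, where the D12 vehicle libraries held 3 counts in all and the Torin libraries 6.77 ± 1.31 CPM in D6 and 7.72 ± 2.21 CPM in D12. The arms carry different batch labels under both treatments, so the schedule and the batch cannot be told apart.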

How the results depend on the processing

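Against 16 genes past the threshold (8 higher in D12, 8 lower, 2 of them on the squamous list), DESeq2 gave 83 (44 and 39). With no filter on low counts there were 330 (175 and 155, with 5 squamous), of which 44 were genes the filter had removed. An adjusted p under 0.01 left 5 (1 and 4, squamous 0), and an adjusted p under 0.05 with a 2-fold minimum left 7 (3 and 4, squamous 1). Sharing the spread over all 4 groups left 1 (0 and 1, squamous 0), and limma on the deposited normalized values 7 (3 and 4, squamous 0). Without pseudogenes, an alternative chosen after seeing the data, 11 remained in all, 8 higher and 3 lower. Leaving out 1 library at a time gave 5 to 44 genes, 2 to 24 higher, 3 to 20 lower and 0 to 2 squamous. With the replicate block the count was 11, with 4 higher, 7 lower and 0 squamous. Between D6 and D12 libraries of equal replicate number, deviations from the group mean correlated at -0.06, -0.14 and 0.12 over 11101 genes. Those of unequal number correlated at -0.13 to 0.19. With 3 libraries a group, such deviations constrain one another, so these values cannot show whether equal numbers mark paired libraries. For the Torin arms, 1805 genes became 3729 in the fit of all 4 groups and 686 to 2254 with 1 library left out, and the 1917 of the test of the difference became 1219 to 2307, lowest without replicate 3 of DMSO D6. All 174 refitted log2 values of the 11 named genes kept their direction, and all 26 list sums moved by less than 1 SD on unscaled totals. Of the 30 genes with the most counts, 23 were also among the leading 30 per kilobase. With 3 libraries a group and 1 batch label per arm, neither the schedule nor the batch can be separated, and the cause of the changes in count was not tested.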

Other observations

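Interferon response genes were the group in which a single vehicle library stood apart. Replicate 1 of D12 summed to 2323 CPM, against 1097 to 1441 CPM in the other 5 libraries, and 28 of the 29 members tested had their highest level there. Ifit1, an RNA-binding antiviral protein, stood at 54.6, 87.0 and 43.1 CPM in D6 and 147, 52.5 and 43.4 CPM in D12. Ifit3 stood at 37.5, 44.8 and 24.1 CPM and 92.8, 29.3 and 22.8 CPM, and the regulator Irf7 averaged 73.5 CPM in D6 and 112 CPM in D12. None of the 29 had an unadjusted p under 0.05 between the groups in edgeR's quasi-likelihood test.

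Of the 12 genes that varied most between the 6 libraries among the 9633 that averaged 10 CPM or more, 3 were Ifit genes (Ifit1, Ifit3 and Ifit3b). Derpc led with an SD of 1.49 on the log2 scale, against a median of 0.10 over all 9633, and was at 0.346 CPM in replicate 2 of D12 and at 12.3 to 24.2 CPM in the others. Zfp968 was at 4.43 CPM in replicate 1 of D6 and at 15.9 to 29.3 CPM elsewhere. Skeletal muscle actin, Acta1, was lowest in that same library, at 6.85 CPM against 12.4 to 26.3 CPM.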
